A study of Mus musculus with 6 samples.

Results

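The tumour suppressor p53, encoded by Trp53, is a transcription factor that activates genes for cell cycle arrest, DNA repair and cell death. RNA levels of 9 genes of this pathway were examined: Trp53 itself, its negative regulators Mdm2 and Mdm4, and its targets Cdkn1a, Ccng1, Phlda3, Zmat3, Trp53inp1 and Aen. The genes were taken by name from a table of 48709 genes, and all 9 were among the 12722 that had enough counts to be tested.

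In unstressed cells p53 protein is short-lived, because Mdm2 attaches ubiquitin to it and Mdm4 blocks its activity. Mdm2 is also activated by p53, which closes a feedback loop. Much of the control of p53 acts on the protein, which RNA-Seq does not measure.

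RNA-Seq was performed on G1E-ER4 cells, made from the mouse erythroid line G1E, which lacks GATA-1 of its own and goes back to embryonic stem cells. GATA-1, a master regulator of red cell genes, was put back as a hybrid with a hormone receptor domain (ESR1), so that tamoxifen switches it on and the cells begin to mature. One group received the CHD4-APR peptide, which carries an aliphatic stretch of the chromatin remodeler CHD4, and the other the CTRL peptide, a stretch of alanines. Both peptides were joined to the Tat sequence of HIV-1 and given at 10 μM. After 2 h tamoxifen was added to both groups for another 28 h. The labels give its concentration as 100 nM for the culture and 100 μM for the design, and the RNA-Seq methods give 100 μM. Each group had 3 libraries of poly(A) RNA from this single line, and nothing states that they came from separate cultures, so p-values measure only the spread between these libraries.

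Total counts were between 41687482 and 49784177 per library, and each of the 9 genes had between 2452 and 17515 counts in every library. Levels are given as normalized CPM (read counts scaled to a common library size), after scaling by the TMM method of edgeR. All 10 erythroid markers were detected, with a summed level of 47104 to 50091 normalized CPM with CTRL and 41413 to 43768 with CHD4-APR, and 2 of them were higher and 4 lower by the test below. The 5 macrophage markers summed to 8.36 to 9.80 normalized CPM with CTRL and 6.76 to 8.16 with CHD4-APR, with Adgre1 and Fcgr1 listed at 0. The 5 megakaryocyte markers summed to 46.7 to 48.8 and 39.9 to 45.7, with Gp1bb listed at 0, and the 5 fibroblast and 5 pluripotency markers were all listed at 0. The 4 lower markers were Klf1 (-0.17 on the log2 scale) and the 3 hemoglobin genes Hba-a1, Hba-a2 and Hbb-bt, which summed to 36819 to 40158 with CTRL and 30885 to 33002 with CHD4-APR. The sum of the other 7 erythroid markers was 9933 to 10312 with CTRL and higher with CHD4-APR, at 10528 to 10766. Gata1 and Tfrc were called higher, Klf1 was called lower, and Epor (-0.12) and Alas2 (-0.11) did not pass. Gata1 made up part of that rise, from a mean of 1609 to 1860. Its reads may come from the hybrid put back into the cells. With the length and GC correction described below 2 of the 10 were higher and 1 lower. The part of these marker levels in the results was not tested. How reads over several or overlapping genes were counted is not given in the sources used here, so a gene listed at 0 is not taken as absent from the cells. Fewer cells of a type and less RNA per cell cannot be told apart in such samples.

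To show where p53 could bind near these genes, promoter windows from 250 bases before to 50 bases after the annotated start were taken from RefSeq (GRCm38.p6). They were searched on both strands for the p53 consensus decamer. A p53 response element consists of a pair of such decamers, each bound by a pair of p53 molecules. Windows were at hand for 7 of the 9 genes, all but Zmat3 and Trp53inp1. A decamer was present for 5 of these 7 genes (71.4%), against 2582 of all 27025 genes with a window (9.55%). The matches are shown with 15 bases on each side, 5′ to 3′ on the strand of the gene. Capitals mark the decamer, or for Cdkn1a and Ccng1 a pair of adjoining decamers with 1 mismatch.
Trp53: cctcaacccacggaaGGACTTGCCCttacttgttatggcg
Mdm2: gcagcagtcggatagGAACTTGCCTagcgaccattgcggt
Cdkn1a: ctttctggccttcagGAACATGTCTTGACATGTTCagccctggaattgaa
Ccng1: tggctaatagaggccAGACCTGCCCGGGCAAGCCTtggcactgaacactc
Aen: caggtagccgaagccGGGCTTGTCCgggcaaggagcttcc

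The stretches printed lie at chr11:69580269-69580308 on the plus strand for Trp53, chr10:117710920-117710959 on the minus strand for Mdm2, chr17:29090913-29090962 on the plus strand for Cdkn1a, chr11:40755447-40755496 on the minus strand for Ccng1 and chr7:78895922-78895961 on the plus strand for Aen. The capitals begin 75 bases before the annotated start in Trp53, 186 in Mdm2, 51 in Cdkn1a and 195 in Ccng1. Aen has 2 annotated starts, and its capitals begin 121 bases before one and 10 bases after the other. The Cdkn1a window holds a further single decamer, GGACTAGCTT, 73 bases before the start, which overlaps the left end of the stretch shown. A second window of Cdkn1a holds none. No decamer was found in the windows of Phlda3 and Mdm4. A pair of adjoining decamers with at most 1 mismatch was present in only 22 of the 27025 genes (0.0814%), Cdkn1a and Ccng1 among them. A match is a description of the letters and not a bound site.

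Of the 9 genes, 5 rose and 1 fell with the CHD4-APR peptide at an adjusted p under 0.05. Mdm2, Mdm4, Ccng1, Zmat3 and Trp53inp1 were higher, Cdkn1a was lower, and Trp53, Phlda3 and Aen did not pass. Among all genes tested, 38.3% passed in either direction, 20.4% higher and 17.8% lower (edgeR quasi-likelihood test with Benjamini-Hochberg adjustment). The groups did not overlap for 6 of the 9 genes, the same 6 that passed, against 49.9% of all genes tested (25% higher and 25% lower). DESeq2 called the same 5 and 1 genes, with backgrounds of 11.8% and 9.67% (21.4% in either direction) of 20637 genes. These include genes with few counts that the edgeR test left out, so the DESeq2 shares are lower for that reason and not comparable. The median log2 fold change of the 9 genes was 0.20, and that of all genes tested was -0.01. Changes across all genes followed the GC content of the transcript, as described below, and after a correction for length and GC content 2 of the 9 genes were higher and 1 lower, with backgrounds of 11.7% and 16.1%.

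**Figure D1:**
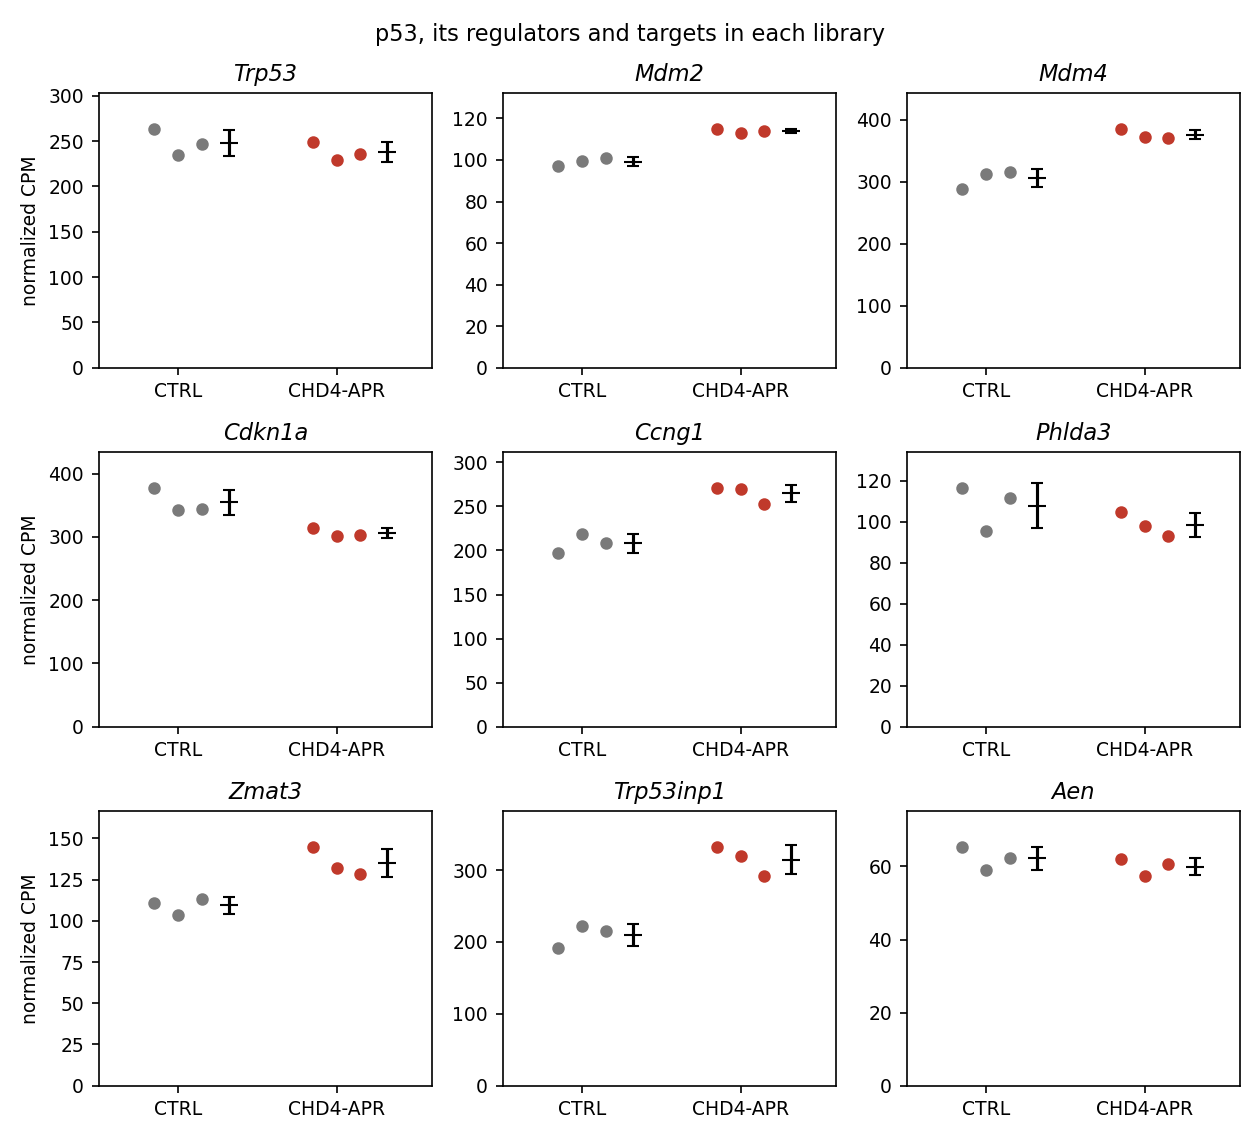
Normalized CPM (y axis, from 0) of the 9 genes in each of the 3 CTRL (grey) and 3 CHD4-APR (red) libraries, with the mean and SD of each group as black bars. The groups separate for Mdm2, Mdm4, Ccng1, Zmat3 and Trp53inp1 (higher with CHD4-APR) and for Cdkn1a (lower), and overlap for Trp53, Phlda3 and Aen.

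Trp53 (chr11:69580359-69591873, plus strand, GRCm38) had 263, 235 and 246 normalized CPM with the CTRL peptide and 249.6, 229 and 235 with the CHD4-APR peptide. The groups overlapped. The means were 248 ± 14.1 and 238 ± 10.5 (SD, n = 3 each), a log2 fold change of -0.06 (SE 0.05, adjusted p = 0.364 by edgeR), with a 95% interval from -0.16 to 0.04. A change of RNA for p53 was thus not detected, and the interval leaves room for a small one in either direction. The corrected log2 fold change, for length and GC content, was 0.00 (adjusted p = 0.954 by edgeR).

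Both negative regulators of p53 rose before the correction. Mdm2 (chr10:117688875-117710758, minus strand), the ubiquitin ligase, had 96.9, 99.6 and 101 normalized CPM with CTRL and 115, 113 and 114 with CHD4-APR. Every CHD4-APR library was above every CTRL library, and the libraries of a group lay close together. The means were 99.2 ± 2.16 and 114 ± 0.956 (SD, n = 3 each), a log2 fold change of 0.20 (SE 0.04, adjusted p = 0.0017 by edgeR). Corrected for length and GC content it was 0.09 and no longer passed (adjusted p = 0.0803 by edgeR).

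Mdm4 (chr1:132959484-133030561, minus strand) encodes a relative of Mdm2 that binds p53 and holds back its activity. It had 289, 313 and 315 normalized CPM with CTRL and 385, 373 and 371 with CHD4-APR. The groups did not overlap. Its log2 fold change was 0.30 (SE 0.04, adjusted p = 8.3e-05 by edgeR), from 306 ± 14.7 to 376 ± 7.55 (SD, n = 3 each). Its sign turned with the length and GC correction, to -0.05 (adjusted p = 0.331 by edgeR). Mdm4 has 14798 exonic bases, the most of the 9 genes. The longest transcript of Mdm4 shares 15.5% of its 50-base stretches with the pseudogene Mdm4-ps, and how reads matching several genes were counted is not given in the sources used here, so its level is uncertain.

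Cdkn1a (chr17:29090976-29100727, plus strand) encodes p21, the inhibitor of cyclin-dependent kinases through which p53 arrests the cell cycle. It had 377, 342 and 345 normalized CPM with CTRL and 314, 301 and 303 with CHD4-APR. Every CHD4-APR library was below every CTRL library. The means were 355 ± 19.3 and 306 ± 7.37 (SD, n = 3 each), and the level fell by 0.21 on the log2 scale (SE 0.05, adjusted p = 0.00171 by edgeR). Cdkn1a was the single one of the 9 genes called lower, and its promoter window holds the pair of decamers shown above. It remained lower with the length and GC correction, at -0.12 (adjusted p = 0.0287 by edgeR). An unconfirmed transcript on the opposite strand, AC167363.2, overlaps 7.68% of its exonic bases, and reads of the pair cannot be told apart without strand.

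Ccng1 (chr11:40748552-40755311, minus strand) encodes cyclin G1, which brings a phosphatase to Mdm2. It had 197, 219 and 209 normalized CPM with CTRL and 271, 270.2 and 253 with CHD4-APR. The groups did not overlap, as the lowest CHD4-APR library stood above the highest CTRL library. The log2 fold change was 0.35 (SE 0.05, adjusted p = 3.94e-05 by edgeR), from 208 ± 10.6 to 265 ± 9.91 (SD, n = 3 each). Ccng1 and Cdkn1a, the pair of genes with adjoining decamers in the promoter window, thus moved in opposite directions. Ccng1 was still higher with the length and GC correction, by 0.16 (adjusted p = 0.00512 by edgeR).

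Trp53inp1 (chr4:11156431-11174379, plus strand), a nuclear stress protein that promotes phosphorylation of p53, changed the most of the 9 genes. It had 192, 222 and 215 normalized CPM with CTRL and 332, 319.6 and 292 with CHD4-APR. The gap between the groups was wider than the range within either of them. The means were 209 ± 15.6 and 314 ± 20.4 (SD, n = 3 each), a log2 fold change of 0.59 (SE 0.06, adjusted p = 1.99e-06 by edgeR). At 1.5-fold it was the only one of the 9 genes to reach that size, which 4.23% of all genes tested reached with an adjusted p under 0.05. With the length and GC correction the log2 fold change was 0.26 (adjusted p = 0.000253 by edgeR).

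Zmat3 (chr3:32334792-32366014, minus strand) encodes a zinc finger protein that binds RNA. It had 111, 103 and 113 normalized CPM with CTRL and 145, 132 and 128 with CHD4-APR. The groups did not overlap, with means of 109 ± 5.20 and 135 ± 8.45 (SD, n = 3 each). Its log2 fold change was 0.31 (SE 0.05, adjusted p = 0.00028 by edgeR). After the length and GC correction 0.09 was left (adjusted p = 0.196 by edgeR), which did not reach the threshold.

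Phlda3 (chr1:135766119-135769136, plus strand) encodes a small protein that keeps the kinase AKT off the membrane. It had 116, 95.4 and 112 normalized CPM with CTRL and 105, 97.9 and 93.0 with CHD4-APR. CTRL replicate 2 lay below 2 of the CHD4-APR libraries, so the groups overlapped. Its log2 fold change was -0.13 (SE 0.06, adjusted p = 0.129 by edgeR), with a 95% interval from -0.27 to 0.01. Without CTRL replicate 2 it was -0.21 and passed (adjusted p = 0.00536 by edgeR), and with the length and GC correction it was 0.02 (adjusted p = 0.823 by edgeR).

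Aen (chr7:78895854-78911209, plus strand), a nuclease that promotes cell death, had 65.3, 59.0 and 62.4 normalized CPM with CTRL and 62.0, 57.4 and 60.6 with CHD4-APR. The values of the groups interleaved. The log2 fold change was -0.05 (SE 0.05, adjusted p = 0.47 by edgeR), with a 95% interval from -0.16 to 0.06. The length and GC correction left it at -0.07 (adjusted p = 0.315 by edgeR).

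**Figure D2:**
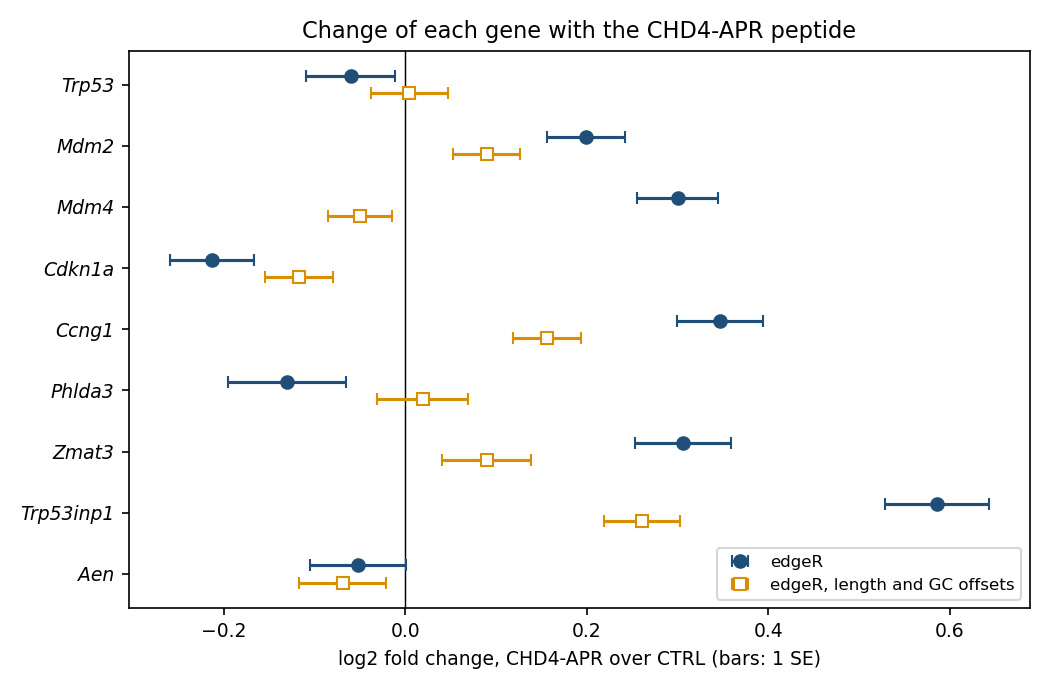
Log2 fold change (x axis, CHD4-APR over CTRL) of the 9 genes from edgeR on the TMM-scaled counts (blue circles) and with the length and GC correction (orange squares), with bars of 1 SE. The 5 higher genes moved toward 0 with the correction, Mdm4 crossed it, and Ccng1, Trp53inp1 and Cdkn1a passed in both.

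Levels of different genes were compared as CPM per kilobase of exonic length. With CTRL the order was Cdkn1a at 99.8, Phlda3 at 69.2, Trp53 at 61.4, Ccng1 at 59.3, Trp53inp1 at 32.3, Mdm4 at 20.7, Mdm2 at 19.5, Aen at 10.7 and Zmat3 at 9.56. The ranges of the libraries overlapped between Phlda3 and Trp53, between Trp53 and Ccng1, and between Mdm4 and Mdm2. Within a library, Phlda3 was nevertheless above Trp53 and Mdm4 above Mdm2 in all 3, and Trp53 above Ccng1 in 2 of 3, so only the last pair had no fixed order. With CHD4-APR the order was Cdkn1a at 86.1, Ccng1 at 75.4, Phlda3 at 63.2, Trp53 at 58.8, Trp53inp1 at 48.6, Mdm4 at 25.4, Mdm2 at 22.4, Zmat3 at 11.8 and Aen at 10.3. Phlda3 and Trp53 were then the only neighbours whose ranges overlapped. Phlda3 was again above Trp53 in all 3. The order depends on the length used. Per kilobase of the longest transcript, Trp53 (75.8) and Phlda3 (75.2) with CTRL changed places, and so did Mdm4 (43.0) and Trp53inp1 (38.6), and Zmat3 (14.02) and Aen (12.6). With CHD4-APR, Trp53 (72.7) likewise stood above Phlda3 (68.7). On both lengths Cdkn1a had the highest level of the 9 genes in both groups, and Ccng1 stood above Phlda3 and Trp53 in the CHD4-APR libraries.

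Ratios of these levels within a library do not depend on the scaling between libraries. Mdm2 to Trp53 was 0.293, 0.337 and 0.327 with CTRL and 0.366, 0.392 and 0.385 with CHD4-APR. Mdm4 to Trp53 was 0.30, 0.364 and 0.350 with CTRL and 0.422, 0.446 and 0.431 with CHD4-APR. With the longest transcript as length Mdm4 to Trp53 was 0.570 and 0.730 on average, with the same log2 difference. Both regulators thus stood higher relative to p53 in every CHD4-APR library, by 0.26 and 0.36 on the log2 scale. Cdkn1a to Trp53 was 1.63, 1.66 and 1.59 with CTRL and 1.43, 1.50 and 1.46 with CHD4-APR, a log2 difference of -0.15. Mdm2 to Mdm4 was 0.977, 0.926 and 0.934 with CTRL and 0.868, 0.881 and 0.895 with CHD4-APR, a log2 difference of -0.10. None of the 4 ratios overlapped between the groups, and the exact permutation test, two-sided, gave p = 0.1 for each (0.1 adjusted over the 4 ratios), the smallest that 3 libraries against 3 can give, so no ratio could pass 0.05 by this test. With the length and GC correction the log2 differences were 0.08 for Mdm2 to Trp53 and -0.12 for Cdkn1a to Trp53, while Mdm4 to Trp53 turned to -0.05 and Mdm2 to Mdm4 to 0.14.

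**Figure D3:**
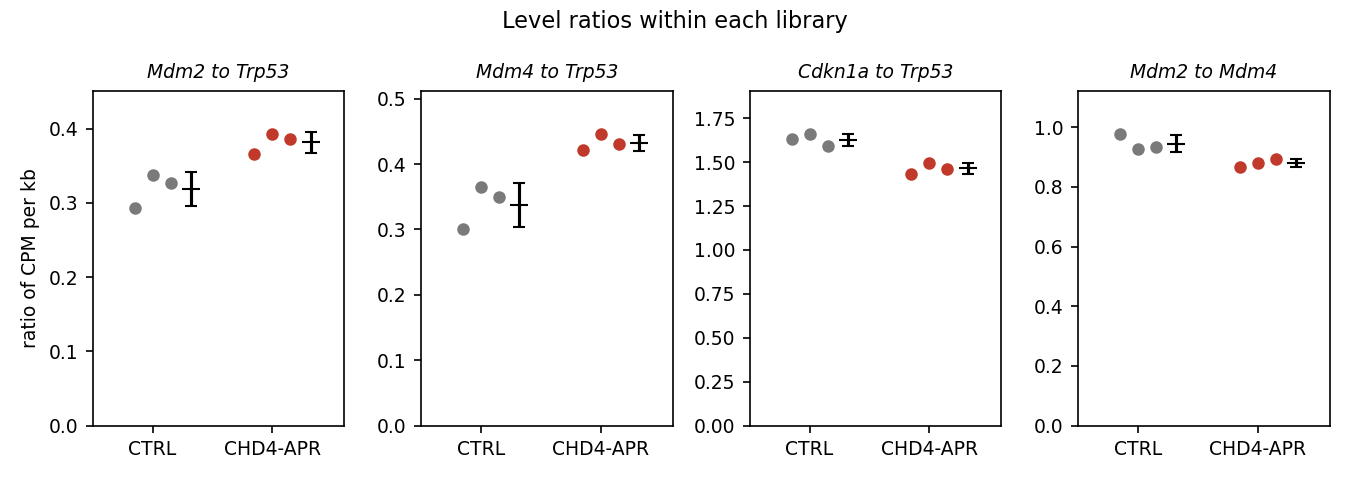
Ratios of CPM per kilobase (y axes, from 0) within each of the 3 CTRL (grey) and 3 CHD4-APR (red) libraries, with the mean and SD of each group, before the length and GC correction. Mdm2 and Mdm4 stood higher relative to Trp53 in all 3 CHD4-APR libraries, and Cdkn1a to Trp53 and Mdm2 to Mdm4 stood lower. With the correction the difference in Mdm4 to Trp53 turned to -0.05 and that in Mdm2 to Mdm4 to 0.14 on the log2 scale.

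The direction of the 9 genes followed the GC content of their transcripts. The 5 higher genes had longest transcripts of 38.8% to 47.6% GC, from Trp53inp1 to Zmat3, and the other 4 had 51.6% to 62.6%, from Aen to Phlda3. The same order was seen over all genes tested. Below 40% GC the median log2 fold change was 0.25, with 47.8% of genes higher and 4.25% lower. From 40% to 45% the median was 0.17, with 42.1% higher and 5.15% lower. From 55% to 60% it was -0.15, with 3.06% higher and 34.0% lower. Against genes of like GC content, Cdkn1a was the single one of the 9 with a log2 fold change below the median of its bin, which was -0.08 from 50% to 55%. Those of the other genes, Trp53, Phlda3 and Aen included, were above the medians of theirs. These bins leave out length. With the length and GC correction Mdm4 (-0.05) and Aen (-0.07) were also below the corrected medians of their bins (-0.02 each). Whether the trend arose in the cells or in the libraries was not tested.

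**Figure D4:**
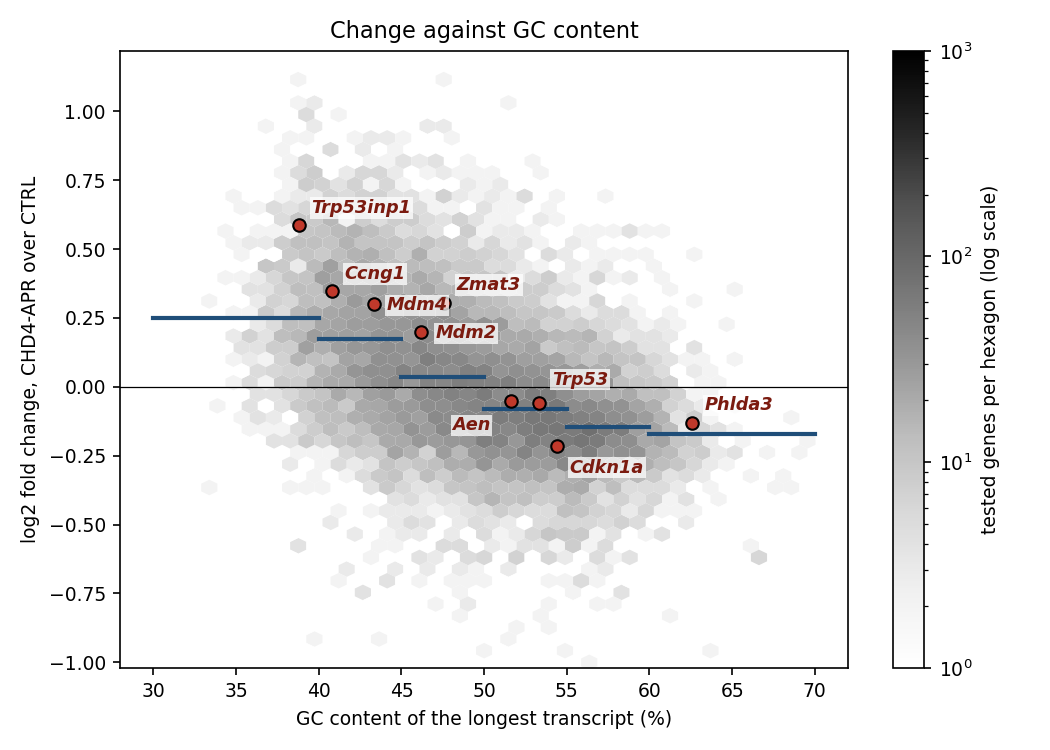
Log2 fold change (y axis, CHD4-APR over CTRL) against the GC content of the longest transcript (x axis, %) for the genes tested, as grey hexagons shaded by the number of genes, with 104 of 12677 genes outside the axes. Blue lines are the medians of GC bins, and red points are the 9 genes, of which the 5 below 50% GC are above 0 and the 4 above 50% are below 0.

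The genes around p53 were read from lists of 27 regulators, 53 other targets and 13 genes that p53 represses through p21 and the DREAM complex. Of these 93 genes 81 were tested, and 21 rose and 20 fell, 50.6% against the 38.3% of all genes. After the length and GC correction 10 were higher and 17 lower. The shares of each list can be read against the 20.4% higher and 17.8% lower of all genes, or 11.7% and 16.1% with the correction.

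Of the 24 regulators tested, 9 rose and 5 fell, with a median log2 fold change of 0.05. With the correction the balance turned, to 5 higher and 8 lower and a median of -0.03, and without CHD4-APR replicate 2 or 3 the lower genes were 3. Hipk2, a kinase that phosphorylates p53, rose the most, from 39.7, 38.7 and 40.02 normalized CPM with CTRL to 61.5, 61.8 and 55.9 with CHD4-APR. This was a log2 fold change of 0.60 (SE 0.05), and 0.55 with the correction, both past the threshold. The acetyltransferase Ep300 rose by 0.50 (0.34 with the correction), from 119, 132 and 139 to 182, 191 and 177 normalized CPM. The deacetylase Sirt1 rose by 0.46 (0.29 with the correction, passing), whereas Atm, the kinase of the DNA damage response, rose by 0.47 but did not pass with the correction (0.16). The largest decreases were in Rpl11 (-0.25), Rpl23 (-0.19) and Rpl5 (-0.17), ribosomal proteins that bind Mdm2, and in the acetyltransferase Kat5 (-0.18). Those of the 3 ribosomal protein genes also passed with the correction, at -0.14, -0.19 and -0.33, and that of Kat5 (-0.08) did not. These ribosomal protein genes have many processed copies in the genome, so their counts are uncertain.

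Of the 53 other targets 44 were tested, and 10 rose, 11 fell and 23 did not pass, with a median of -0.04. Plk2, Rprm, Pmaip1, Fas and Perp were listed at 0 in every library, which says nothing certain of their expression. Among 11 tested targets of arrest and feedback, with a median of 0.00, the ubiquitin ligase subunit Fbxw7 rose by 0.13, and Psrc1, a microtubule-associated protein, and the RING finger protein Cgrrf1 both fell by 0.17. With the correction Fbxw7 was at -0.02 and Psrc1 at -0.10, neither of which passed, and Cgrrf1 was lower at -0.35. The call of Fbxw7 was lost when any library other than CTRL replicate 2 was left out, and without CHD4-APR replicate 1 or 2 only 1 target was lower.

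Cell death targets moved in both directions, 2 higher and 3 lower of 9 tested, with a median of -0.13, and 2 higher and 1 lower with the correction. Eda2r, a receptor of the tumour necrosis factor family, rose from 28.5, 28.9 and 30.6 to 48.3, 44.7 and 44.1 normalized CPM, a log2 fold change of 0.64 (SE 0.06). Apaf1, the scaffold of the apoptosome, rose from 80.6, 92.7 and 87.6 to 127, 125 and 119 normalized CPM, by 0.51. Both also passed with the correction, at 0.38 and 0.30. The pore-forming protein Bax fell from 229, 185 and 202 to 179, 170.3 and 173 normalized CPM, by 0.24. The BH3-only protein Bbc3 fell by 0.24 as well, but its groups overlapped. Neither passed with the correction (-0.10 and -0.11), whereas Triap1, an inhibitor of cell death, was lower in both (-0.27 and -0.17).

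Of 6 tested DNA repair targets 3 rose and 0 fell, with a median of 0.20, and with the correction 1 was higher and 1, the nuclease gene Ercc5 (-0.14, adjusted p = 0.0135 by edgeR), was lower. Ercc5 was at -0.03 before it and was named after its value was seen. Rrm2b, a subunit of ribonucleotide reductase, rose by 0.62 from 4.91, 6.60 and 6.55 to 8.70, 9.90 and 9.25 normalized CPM. The translesion polymerase Polk rose by 0.46 and the damage sensor Xpc by 0.34. Xpc passed with the correction (0.35), and Rrm2b and Polk narrowly missed the threshold (0.27 and 0.22, adjusted p = 0.0506 and 0.0512 by edgeR).

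Of 18 tested targets in metabolism and growth 4 rose and 6 fell, with a median of -0.09, and 2 were higher and 4 lower with the correction. The lower count rested on single libraries: it was 2 without CTRL replicate 1, CTRL replicate 3 or CHD4-APR replicate 1, 1 without CHD4-APR replicate 2 (with 2 higher) and 3 without CHD4-APR replicate 3. Lpin1, a phosphatase of lipid synthesis, rose by 0.27, the stress protein Sesn1 by 0.24 and the thiamine transporter Slc19a2 by 0.21. Sesn1 and Slc19a2 also passed with the correction, at 0.25 and 0.20, and Lpin1 (0.14) did not. The lipid transfer protein Pltp fell by 0.70, at a low level of 1.84, 1.07 and 1.59 against 0.738, 0.702 and 1.29 normalized CPM, and its groups overlapped. Aldh4a1, of proline breakdown, fell by 0.22, the sugar reductase Dcxr, with overlapping groups, by 0.21 and the ferredoxin reductase Fdxr by 0.16. Of these 4 lower genes Aldh4a1 alone passed with the correction (-0.13).

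Of the 13 cell cycle genes repressed through p21 and DREAM, 2 rose and 4 fell, with a median of -0.07, and 0 were higher and 2 lower with the correction. Without CHD4-APR replicate 1 there were 2 higher and 2 lower and the median was 0.01, so the balance rested on that library. Without CTRL replicate 1 or 3 or CHD4-APR replicate 2 or 3, 1 was higher. The mitotic kinase Plk1 fell from 127, 133 and 126 to 98.4, 111 and 114 normalized CPM, by 0.25. Cdc25c, the phosphatase that opens mitosis, fell by 0.24, Birc5, of the chromosomal passenger complex, by 0.23, and the transcription factor Mybl2 by 0.17. Kif23, a motor protein of cytokinesis, rose by 0.26 and cyclin A2 (Ccna2), with overlapping groups, by 0.14. Only Cdc25c and Birc5 passed with the correction, at -0.39 and -0.25.

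**Figure D5:**
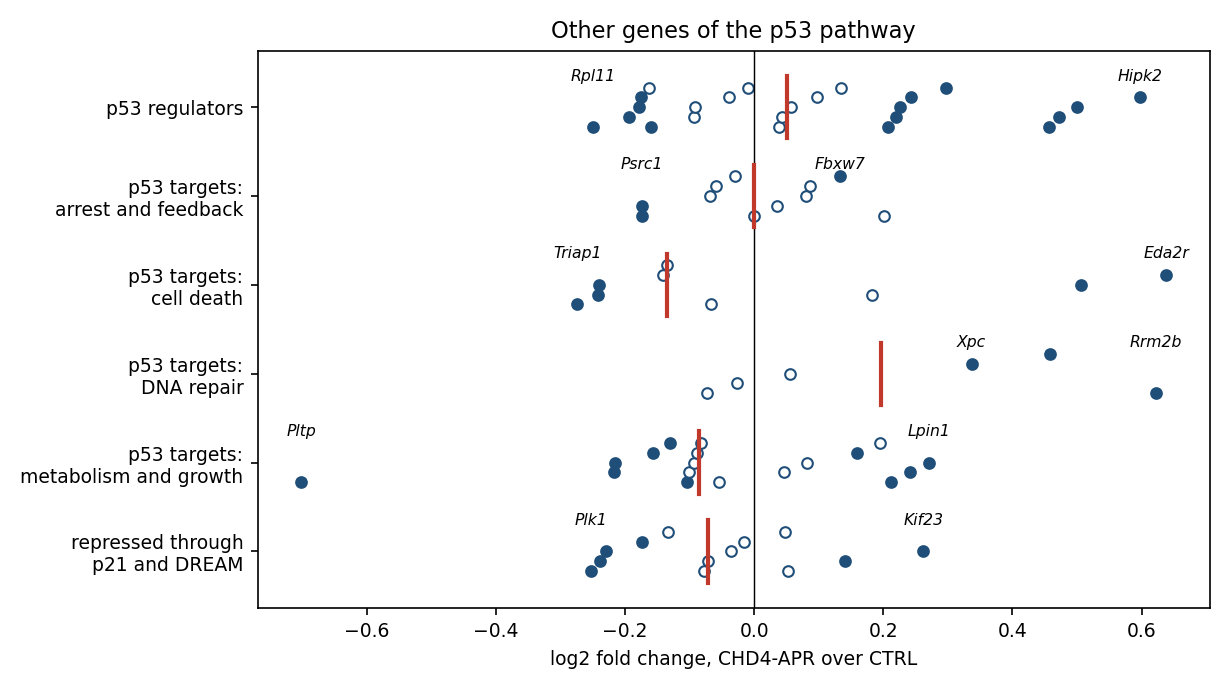
Log2 fold change (x axis, CHD4-APR over CTRL, before the length and GC correction) of each tested gene of the 6 pathway lists, filled where the adjusted p was under 0.05 and open otherwise, with the median of each list as a red line. The largest called change in each direction is named, and every list but that of DNA repair holds called genes on both sides of 0.

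The promoter decamer was also counted in these lists, to be read against the 9.55% of all genes with a window. Among the marker lists it was found in 2 of 3 macrophage markers with a window, and in none of the others. It was found in 4 of 12 arrest and feedback targets with a window, 3 of 10 cell death targets, 1 of 3 DNA repair targets, 2 of 18 metabolic targets, 1 of 24 regulators and 3 of 10 genes repressed through p21 and DREAM. Besides Cdkn1a and Ccng1, the lists held adjoining decamers in Gtse1, a microtubule protein that restrains p53, with a log2 fold change of -0.06 (adjusted p = 0.369 by edgeR), and in Rps27l, a ribosomal protein relative, which fell by 0.13 (adjusted p = 0.0428 by edgeR). The pair were named for these letters in their windows. Of the 4 genes, 1 rose, 2 fell and 1 did not pass, beside 20.4% higher and 17.8% lower of all genes tested. The call of Rps27l was lost when any 1 of 4 libraries was left out. Other genes with such a pair were not counted here.

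Across the 6 libraries, the genes whose log2 normalized CPM ran most like that of Trp53, among 9893 genes, were Clec10a (Pearson r = 0.997), Slc9a3r1 (0.996) and Acap1 (0.993). For Mdm2 they were Slc15a2, Zmym2 and Adnp2 (0.999 each), all higher with CHD4-APR, by 0.39, 0.51 and 0.41 on the log2 scale. For Cdkn1a they were Ptcd1, Atp6v0d1 and Tmbim6 (at least 0.998), all lower, at -0.17, -0.20 and -0.12. A value above 0.95 was reached by 64 genes for Trp53, 1187 for Mdm2 and 609 for Cdkn1a. With 6 points in 2 groups these values mostly describe the difference between the groups for Mdm2 and Cdkn1a, and no test is attached to them.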

How the data were processed

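RNA was sequenced from G1E-ER4 cells in 3 CTRL and 3 CHD4-APR libraries. The authors trimmed reads with Cutadapt, aligned them with STAR 2.7.10a to GRCm38 and deposited raw counts per Ensembl gene from featureCounts, not normalized. Strandedness and the counting of reads that match several genes are not given in the sources used here. The table holds 2 further columns that correspond to no sample and were left out.

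Counts were compared with edgeR 4.0.16 in R 4.3.3 (filterByExpr, TMM, quasi-likelihood F-test, no block, Benjamini-Hochberg adjustment over 12722 genes, threshold 0.05). The 9 genes had at least 2452 counts in each library, but Pltp, of the pathway lists, had 30 to 78, where counting error weighs more. SEs follow from each fold change and its F statistic. Genes were located with GENCODE M21 (GRCm38), which held 48349 of the 48709 identifiers. In the length and GC correction, log2 CPM of each library were smoothed (mgcv 1.9.3) on exonic length and GC content of the longest transcript, and the fitted values entered edgeR as offsets. This removes any trend with these properties, whether it arose in the cells or in the libraries.

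Alternatives were DESeq2 1.42.0, limma-voom (limma 3.58.1), other scalings, filters and thresholds, a replicate block, the table without hemoglobin genes, and leaving out each library. The procedures were tested on simulated counts. Named in the text are the 9 genes, and of each pathway list all genes that passed or, where more than 8 did, the 4 largest changes in each direction, and the 3 genes most like Trp53, Mdm2 and Cdkn1a. Some genes of the lists are not reported here by name. The genes and lists were chosen with earlier results of these data known. No replicate pair agreed within sampling noise.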

Additional observations from a re-analysis of the deposited data

How the results depend on the processing

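The main counts were 2601 genes higher and 2270 lower, 5 and 1 of the 9 genes, and 21 and 20 of the pathway lists. With the length and GC correction they were 1485 and 2042, 2 and 1, and 10 and 17. With this correction and a replicate block 1673 and 2329 genes were called, 2 and 1 of the 9 genes, and 13 and 23 of the lists. At 1.5-fold they were 443 and 95, 1 and 0, and 3 and 1, and at an adjusted p under 0.01 1942 and 1308, 5 and 1, and 16 and 10. Upper quartile scaling gave 2419 genes higher and 2601 lower, against 2601 and 2270, and left the 9 genes at 5 and 1. Mdm4 reversed to -0.0498 with the correction and -0.0502 with the block added, and Fbxw7 to -0.0203 and -0.01998. The cause was not tested. The ratios, corrected as a step added after the data were seen, gave 0.08 for Mdm2 to Trp53 and -0.12 for Cdkn1a to Trp53, and reversed for Mdm4 to Trp53 (-0.0545) and Mdm2 to Mdm4 (0.14). The replicate block alone gave 2739 genes higher and 2475 lower, with 5 higher and 2 lower of the 9 genes, as Phlda3 passed (adjusted p = 0.0432 by edgeR). Whether the numbers pair the samples was not settled. Deviations of same-numbered libraries correlated across genes at 0.07, 0.06 and -0.03, and those of other pairs at -0.08 to 0.03. CHD4-APR replicates 1 and 2 correlated best with their own number, and CHD4-APR replicate 3 did not. With 3 libraries per group these values cannot decide it. Leaving out a library gave 2175 to 2613 genes higher and 1528 to 2315 lower, 5 of the 9 genes higher and 1 to 2 lower (2 without CTRL replicate 2), and 17 to 22 and 11 to 17 of the lists. The lists held 11 lower genes without CHD4-APR replicate 2, 12 without CHD4-APR replicate 1 and 13 without CTRL replicate 3. DESeq2 and limma-voom called 5 and 1 of the 9 genes. With 3 libraries per group, the exact permutation test of the ratios could not pass. Calls were lost without 1 of several single libraries for Fbxw7 and Fdxr (5 libraries each), Bbc3, Ccna2, Dcxr, Pltp and Rps27l (4 each), Mybl2 (3), and Cgrrf1 and Kat5 (2 each), and for Birc5 without CHD4-APR replicate 1 and Slc19a2 without CHD4-APR replicate 2.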
